A study of Mus musculus with 48 samples.

Results

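The 10 genes described here, Slc3a2, Slc7a1, Slc7a3, Slc7a5, Slc7a6, Slc7a11, Slc1a4, Slc1a5, Slc38a2 and Slc6a9, encode plasma membrane transporters of amino acids. They were taken by name, and all 10 were found among the 18178 genes that carry a symbol in the authors' RNA-Seq table. All 10 also passed the minimum mean log2 value of 1 that left 13409 genes for testing. RNA was measured in 48 samples from 16 conditions with 3 samples each. The cells were STHdh lines, conditionally immortalized progenitors from the mouse striatum, labelled as C57BL/6. STHdhQ7 carries wild-type huntingtin and STHdhQ111 is a homozygous knock-in of the polyglutamine-expanded gene, the mutation of Huntington's disease. Each genotype was represented by 1 purchased line, so that genotype and line cannot be told apart.

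All 16 conditions were kept for 24 hours in serum-free medium, the vehicle controls included. STHdhQ7 cells received the vehicle DMSO only. STHdhQ111 cells received DMSO or 1 of 14 compounds that the study had chosen as protective. The compounds had been dissolved in DMSO or water, so the solvent of some may differ from that of the control. Diacylglycerol kinase inhibitor II (DKI), meclizine, loxapine, cyproheptadine and selisistat were given at 10 µM and pizotifen at 5 µM. Cysteamine was given at 250 µM, sodium butyrate at 1 mM and 4-deoxypyridoxine (DOP) at 4 mM. Fingolimod phosphate was given at 250 nM, trichostatin A (TSA) at 10 nM and nortriptyline at 1 nM. Nicotinamide and haloperidol were each given at 0.5 nM. The study set 2 groups of compounds from metabolite data. Group A held cyproheptadine with loxapine and pizotifen, whereas Group B was made up of DKI with meclizine.

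Samples were collected on 3 days at 3 times a day, and a compound's replicates did not always share these slots with the vehicle control. The total of the linear values differed by at most 1.11-fold between samples, and the lowest correlation between replicates across genes was 0.999. The progenitor label was checked against markers fixed as a list. Of 6 neural progenitor markers, 2 reached a mean log2 value of 6, Vim at 15.4 and Sox9 at 9.38. Nes stood at 5.51, Sox2 at 5.11, Msi1 at 4.40 and Pax6 at 3.06. None of the 5 striatal projection neuron markers found in the table exceeded 1.93. Of 5 fibroblast or mesenchymal markers, 4 reached 6, with Col1a1 at 14.5 and Col1a2 at 12.7. The microglial list had only Ptprc at such a level, 10.2, with Cx3cr1, P2ry12 and Aif1 all below -1.8. The neuronal list had only Map2 above 6, at 8.37, with Rbfox3 at -2.13. The endothelial list had only Pecam1 above 6, at 8.35, with Cdh5 at 0.22. The highest astrocyte and oligodendrocyte markers found stood at 4.95 and 3.56. The table thus shows Vim and collagen RNA but not the defining genes of striatal neurons, and the lines are called STHdh cells below.

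Amino acid transporters of the plasma membrane fall into families with separate tasks. Slc3a2 encodes the heavy chain CD98hc, which pairs through a disulfide bond with a light chain and brings it to the surface. Its partners include Slc7a5 (LAT1, an exchanger of large neutral amino acids), Slc7a6 (y+LAT2, an exchanger of cationic for neutral amino acids) and Slc7a11 (xCT, which takes up cystine in exchange for glutamate and so feeds glutathione synthesis). Slc7a1 and Slc7a3 (CAT1 and CAT3) carry arginine and lysine without a heavy chain. Slc1a4 (ASCT1) and Slc1a5 (ASCT2) exchange small neutral amino acids such as serine and glutamine, Slc38a2 (SNAT2) takes up small neutral amino acids together with sodium, and Slc6a9 (GlyT1) takes up glycine. Many of these genes are known targets of ATF4, a transcription factor that is translated when amino acids run short or the endoplasmic reticulum is stressed.

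ATF4 binds DNA with a C/EBP partner at composite elements, often written as TGATGNAA, which join a site of each factor. The promoter windows of the 10 genes were searched for these letters on both strands. Stretches with a match are shown because many of the genes are known targets of ATF4. The windows came from RefSeq (GRCm38.p6), run from 250 bases before a start site to 50 after it, and were at hand for 7 of the 10 genes. Slc7a3, Slc7a5 and Slc1a5 were not matched. The letters TGATGNAA, or TTNCATCA in reverse, stood in 3.97% of all 32851 windows of 300 bases. Among the 7 genes they stood in the windows of Slc7a11, which had a match on each strand, and of Slc1a4. In the lines that follow capitals mark the matches, and each stretch is written along the gene's own strand.
Slc7a11, chr3:50443643-50443689, minus strand: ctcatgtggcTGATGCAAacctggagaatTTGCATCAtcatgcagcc
Slc1a4, chr11:20332710-20332727, minus strand: gcctcctgcgTTGCATCA

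A further spelling, TGACNNNGC, is the core of the antioxidant response element and not an ATF4 site. It stood in 12.4% of all windows (reverse GCNNNGTCA). This share and that of TGATGNAA are per window, and some genes had several, so counts of genes cannot be set against them. The spelling was found in window 1 but not window 2 of Slc7a1, and in each window of Slc7a6 at the same site. It was also found in the single window of Slc38a2 and in windows 2 and 3 but not 1 of Slc6a9. The windows of Slc7a11 and Slc1a4 did not hold it. All 4 are shown because they ran from genes that rose strongly with DKI, Slc7a1 and Slc6a9, through Slc38a2 to Slc7a6, which was not called with any of the 5 compounds that raised the others. Slc6a9 had the spelling in a pair of its windows, and 1 is given.
Slc7a1, chr5:148399905-148399925, minus strand: cggccgcgcgGCGCTGTCAtt
Slc6a9, chr4:117849294-117849322, plus strand: tgaaagtaatTGACGCTGCccagcccggc
Slc38a2, chr15:96699737-96699765, minus strand: ccccgcccacTGACGCGGCgccccgccgc
Slc7a6, chr8:106168843-106168871, plus strand: ccggtgcgagTGACGTGGCgtgggcgggg
Slc3a2, whose RNA changed strongly, held neither spelling in its single window (chr19:8713848-8714147, minus strand). That window lies inside the gene as annotated, which starts at 8723369 on that strand, and no window at this start was searched. A match describes letters in a window, and neither binding nor its absence can be read from it.

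Of the 14 compounds, 5 raised transporters among the 10, and they were the same 5 that make up Groups A and B. The study had set these 5 apart from the vehicle control in the same RNA data, so the match is not independent. Against the STHdhQ111 vehicle control, 9 of the 10 genes were higher with DKI (background 20.4% of all tested genes called higher), 9 with meclizine (13.1%) and 9 with cyproheptadine (17.5%), by limma at a Benjamini-Hochberg adjusted p under 0.05. With pizotifen 7 of 10 were higher (8.86%) and with loxapine 6 of 10 (10.1%), and none of the 10 was lower with any of the 5. Of all tested genes 21.9% were called lower with DKI, 13.6% with meclizine, 18.2% with cyproheptadine, 9.07% with pizotifen and 11.8% with loxapine. The median log2 fold change over the 10 genes was 1.35 with DKI, 1.03 with meclizine, 0.64 with cyproheptadine, 0.50 with pizotifen and 0.38 with loxapine, while the median over all tested genes lay between -0.0058 and 0.0048. These comparisons share the vehicle samples, as do all comparisons with that control below. Slc7a6 was the gene that rose with none of the 5.

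**Figure D1:**
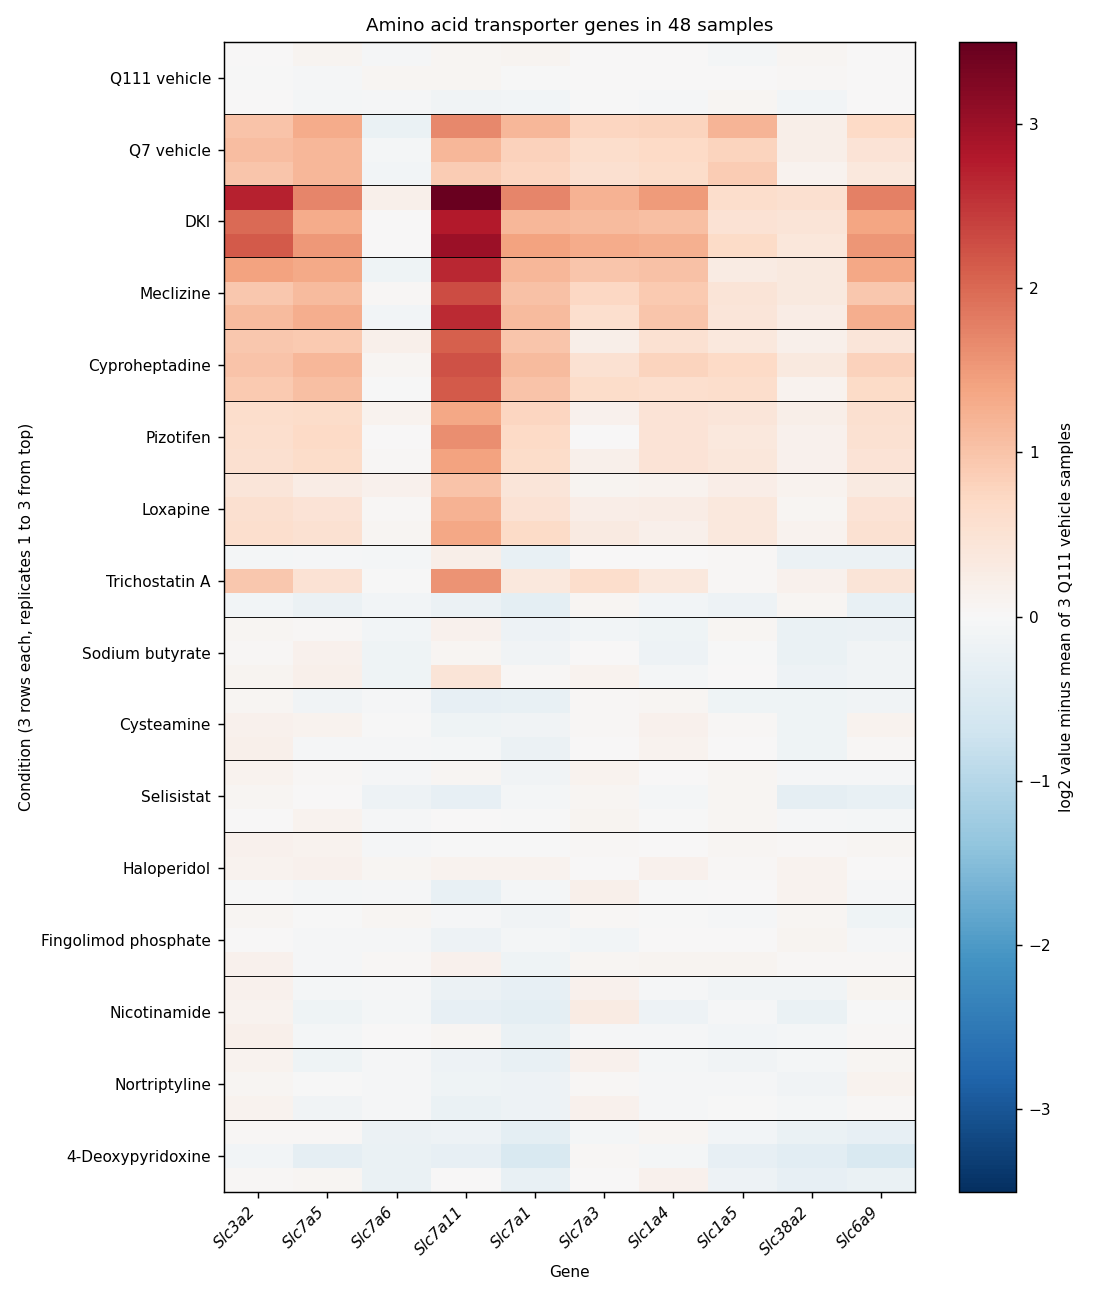
Log2 value of each of 10 amino acid transporter genes minus the mean of the 3 STHdhQ111 vehicle samples, with 1 row per sample, 3 rows per condition and a color scale from blue (lower) to red (higher). The red block covers the STHdhQ7 vehicle control, DKI, meclizine, cyproheptadine, pizotifen and loxapine, with a single red row at replicate 2 of trichostatin A, and the column of Slc7a6 stays pale throughout.

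Slc7a11, the cystine carrier xCT (ENSMUSG00000027737, chromosome 3 of GRCm38, 49892526 to 50443614, minus strand), showed the widest changes. The pseudogene Gm37692 and the unclassified locus Gm37498 overlap it on the same strand, so that some of their reads could be assigned to it. In the STHdhQ111 vehicle control its log2 values were 6.24, 6.25 and 6.06. With DKI they were 9.66, 8.96 and 9.18. The samples did not overlap, and Slc7a11 rose by 3.09 on the log2 scale (standard error, SE, 0.23, adjusted p = 2.44e-13 by limma), which is 8.49-fold on the linear scale. With meclizine the values were 8.83, 8.45 and 8.78, which made a log2 fold change of 2.51 (adjusted p = 1.53e-10 by limma). Cyproheptadine gave 8.27, 8.42 and 8.33, a log2 fold change of 2.16 (adjusted p = 4.6e-09 by limma). The other Group A compounds moved it less. Pizotifen gave 7.55, 7.82 and 7.58 (log2 fold change 1.47) and loxapine 7.18, 7.42 and 7.52 (log2 fold change 1.19). All 3 samples of each of the 5 compounds lay above every vehicle sample. In order of the mean level Slc7a11 ran from DKI through meclizine, cyproheptadine and pizotifen to STHdhQ7 and loxapine. Neither pizotifen nor loxapine was separated from STHdhQ7, which lay between them, by more than the SD of the STHdhQ7 samples, whereas pizotifen stood above loxapine by more than the SD of either. Leaving aside TSA, the means of the other compounds stayed between 5.99 and 6.40.

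Slc3a2, the heavy chain (ENSMUSG00000010095, chromosome 19, 8706882 to 8723369, minus strand), was among the steadiest of the 10 in the vehicle control, at 10.85, 10.82 and 10.84. With DKI its values were 13.53, 12.83 and 12.99. This was a log2 fold change of 2.28 (SE 0.15, adjusted p = 1.05e-14 by limma), or 4.87-fold, and replicate 1 was the highest of the 3. Meclizine samples were at 12.24, 11.79 and 11.95 (log2 fold change 1.16) and cyproheptadine samples at 11.77, 11.82 and 11.74 (0.94). Pizotifen gave 11.46, 11.43 and 11.39 (0.59) and loxapine 11.26, 11.39 and 11.41 (0.52). Each of these 5 passed the test and none of their samples reached down to a vehicle sample. DKI stood apart from the next condition, meclizine, by more than the SD of either, whereas meclizine and the STHdhQ7 control did not.

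Slc7a5, the LAT1 light chain (ENSMUSG00000040010, chromosome 8, 121881150 to 121907694, minus strand), was at 10.19, 10.05 and 10.04 in the STHdhQ111 vehicle control. With DKI it reached 11.80, 11.38 and 11.62 (log2 fold change 1.51, adjusted p = 2.09e-13 by limma) and with meclizine 11.42, 11.19 and 11.35 (1.23, adjusted p = 1.2e-10). With cyproheptadine it was at 11.00, 11.24 and 11.14 (1.03, adjusted p = 5.84e-09 by limma). Pizotifen raised it by 0.66 and loxapine by 0.43 on the log2 scale, both called. The coding gene Gm20388 overlaps Slc7a5 on the other strand, and the library kit was directional.

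Slc7a6, the y+LAT2 light chain (ENSMUSG00000031904, chromosome 8, 106168857 to 106198706, plus strand), behaved unlike its partners. In the vehicle control it was at 9.93, 10.05 and 9.93, and with DKI at 10.15, 9.98 and 9.98. The log2 fold change was 0.07 (95% interval -0.04 to 0.18, adjusted p = 0.324 by limma). Over the 5 compounds its log2 fold changes ranged from -0.07 to 0.08, and the samples overlapped with the vehicle in all 5. Its standard error of 0.054 was the smallest among the 10 genes, so a rise as large as that of Slc7a5 with loxapine lay outside every one of the 5 intervals. It was called lower with DOP, at 9.77, 9.73 and 9.73 (log2 fold change -0.22, adjusted p = 0.00328 by limma).

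**Figure D2:**
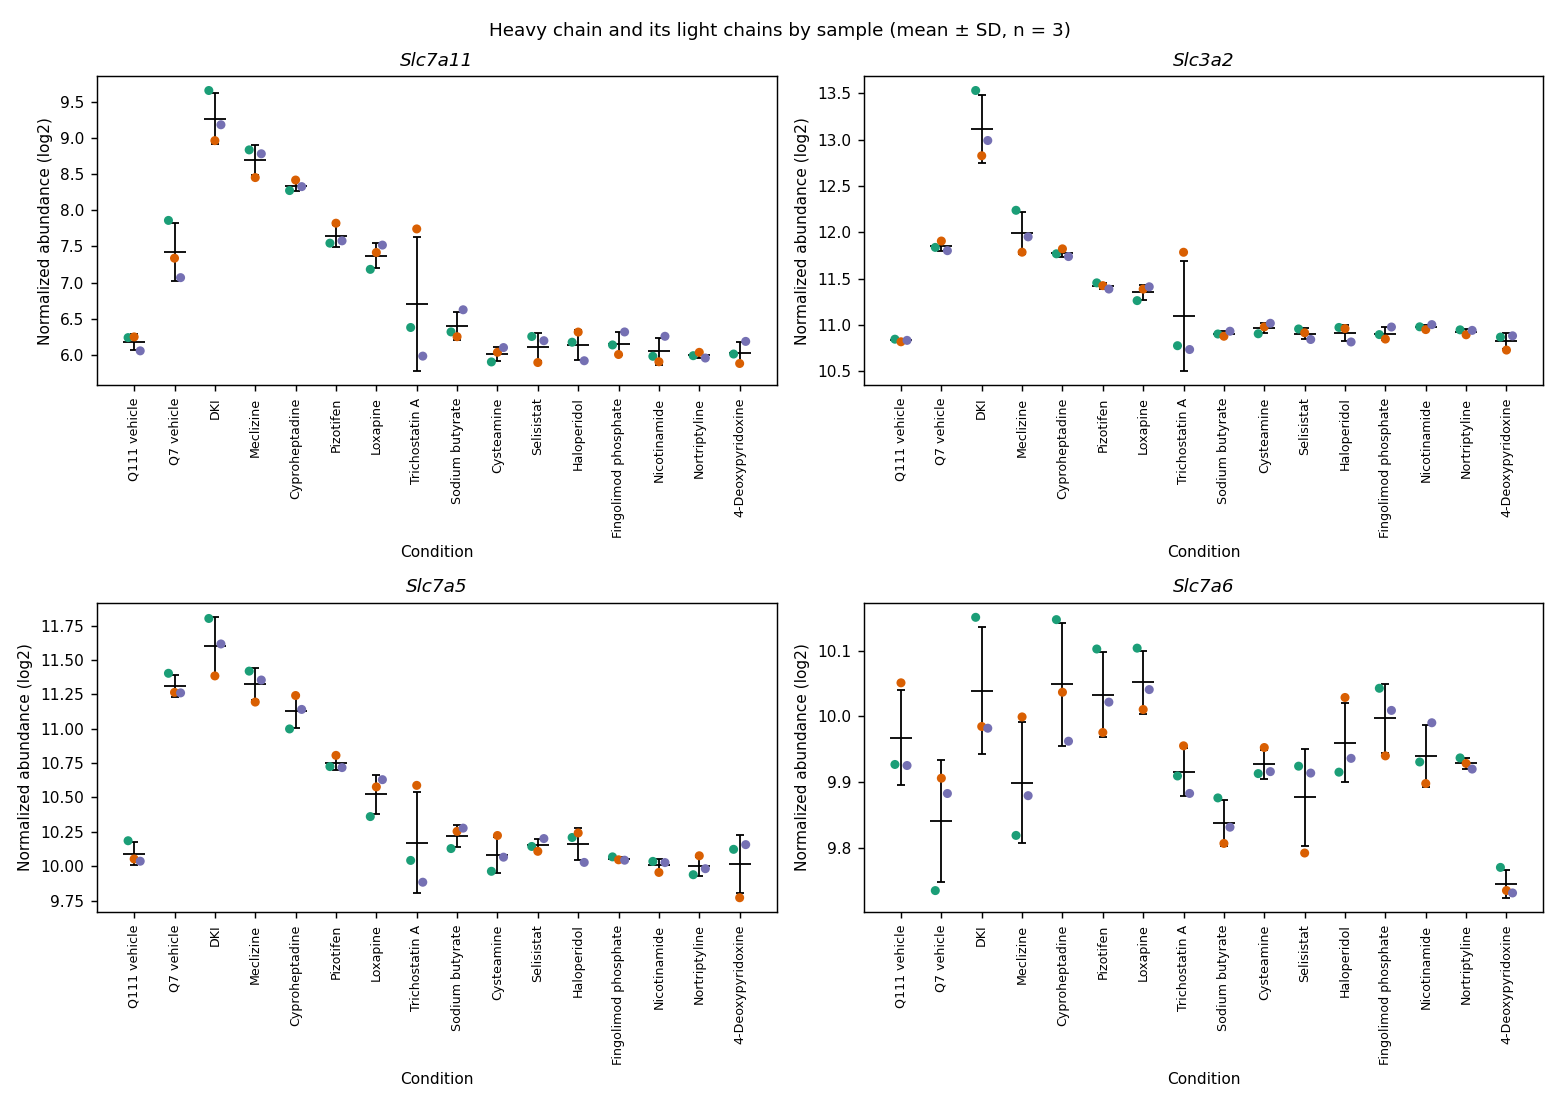
Log2 normalized abundance of Slc7a11, Slc3a2, Slc7a5 and Slc7a6 in every sample of the 16 conditions, with points for replicate 1 (green), 2 (orange) and 3 (violet) and black marks for mean ± SD (n = 3). Each panel has its own axis, and the whole range of Slc7a6 means, 9.75 to 10.05, is narrower than the step of any other panel from the STHdhQ111 vehicle control to loxapine.

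Slc7a1, the arginine and lysine carrier CAT1 (ENSMUSG00000041313, chromosome 5, 148327410 to 148399904, minus strand), was at 9.71, 9.59 and 9.51 in the vehicle control. DKI brought it to 11.32, 10.78 and 11.03 (log2 fold change 1.43, SE 0.12, adjusted p = 1.96e-12 by limma). Meclizine gave 10.77, 10.64 and 10.71 (1.10) and cyproheptadine 10.57, 10.73 and 10.61 (1.03). The means of meclizine, cyproheptadine and the STHdhQ7 control were not separated by more than their SDs in this gene. Pizotifen gave 10.37, 10.30 and 10.25 (0.70) and loxapine 10.04, 10.11 and 10.26 (0.53), and all 5 were called.

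Slc7a3, the related carrier CAT3 (ENSMUSG00000031297, chromosome X, 101079210 to 101086020, minus strand), had vehicle samples at 3.17, 3.17 and 3.16. With DKI it was at 4.39, 4.27 and 4.48 (log2 fold change 1.21, adjusted p = 2.21e-11 by limma), and with meclizine at 4.14, 3.88 and 3.77 (0.76). Cyproheptadine raised it by 0.46 (adjusted p = 0.0011 by limma). Loxapine (0.22, adjusted p = 0.154 by limma) and pizotifen (0.12, adjusted p = 0.501) did not pass, although their samples lay above every vehicle sample. Loxapine was called with only the compared samples in the fit (adjusted p = 0.0224 by limma).

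Among carriers of small neutral amino acids, Slc1a4 (ENSMUSG00000020142, chromosome 11, 20302180 to 20332713, minus strand) moved most with DKI. Its vehicle samples were at 8.71, 8.70 and 8.66, and DKI brought them to 10.17, 9.76 and 9.93 (log2 fold change 1.26, SE 0.085, adjusted p = 1.84e-14 by limma). Meclizine gave 9.72, 9.61 and 9.67 (0.97), cyproheptadine 9.24, 9.49 and 9.29 (0.64) and pizotifen 9.17 in each of its 3 samples (0.48). Loxapine samples, at 8.81, 8.95 and 8.89, lay above the vehicle but did not pass the test (0.19, adjusted p = 0.112 by limma). Set against nicotinamide and nortriptyline, which were collected in the same slots as loxapine, the gene was called higher with loxapine (0.25, adjusted p = 0.00991 by limma).

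Slc1a5, the serine and glutamine exchanger ASCT2 (ENSMUSG00000001918, chromosome 7, 16781340 to 16798274, plus strand), followed another order. Its vehicle samples were at 8.71, 8.78 and 8.83 and its highest condition was not a compound but the STHdhQ7 vehicle control, at 9.96, 9.57 and 9.65. With DKI it was at 9.38, 9.28 and 9.45 (log2 fold change 0.60) and with cyproheptadine at 9.13, 9.49 and 9.38 (0.56). Pizotifen (0.40), meclizine (0.39) and loxapine (0.33) were called as well. The 5 compound means spanned 9.10 to 9.37 and no 2 neighbours among them were separated by more than their SDs.

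Slc38a2, the sodium-coupled carrier SNAT2 (ENSMUSG00000022462, chromosome 15, 96687392 to 96699730, minus strand), changed least with DKI among the genes that rose. Its vehicle samples were at 12.40, 12.37 and 12.23. With DKI it was at 12.88, 12.78 and 12.74 (log2 fold change 0.47, SE 0.07, adjusted p = 9.15e-07 by limma) and with meclizine at 12.67, 12.67 and 12.60 (0.31, adjusted p = 0.000665). Cyproheptadine, at 12.52, 12.68 and 12.44, was called (0.22, adjusted p = 0.0131 by limma), but not without its replicate 2 or without replicate 3 of the vehicle, when the value fell as low as 0.14. Pizotifen (0.18, adjusted p = 0.0722 by limma) and loxapine (0.10, adjusted p = 0.337) did not pass. Both depended on the samples used. Pizotifen was called with only the compared samples in the fit (adjusted p = 0.0313 by limma), and loxapine was called against nicotinamide and nortriptyline, at 0.22 (adjusted p = 0.00767 by limma).

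Slc6a9, the glycine transporter GlyT1 (ENSMUSG00000028542, chromosome 4, 117834506 to 117875198, plus strand), was at 9.70, 9.70 and 9.71 in the vehicle control. DKI gave 11.47, 11.08 and 11.26 (log2 fold change 1.57, SE 0.12, adjusted p = 3.85e-13 by limma) and meclizine 11.05, 10.64 and 10.97 (1.18, adjusted p = 1.01e-09). Group B thus stood above all other conditions in this gene by more than the SDs. The Group A compounds gave 0.64 (cyproheptadine), 0.52 (pizotifen) and 0.44 (loxapine), all called. Ccdc24, B4galt2 and Gm17114 overlap Slc6a9 on the other strand.

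**Figure D3:**
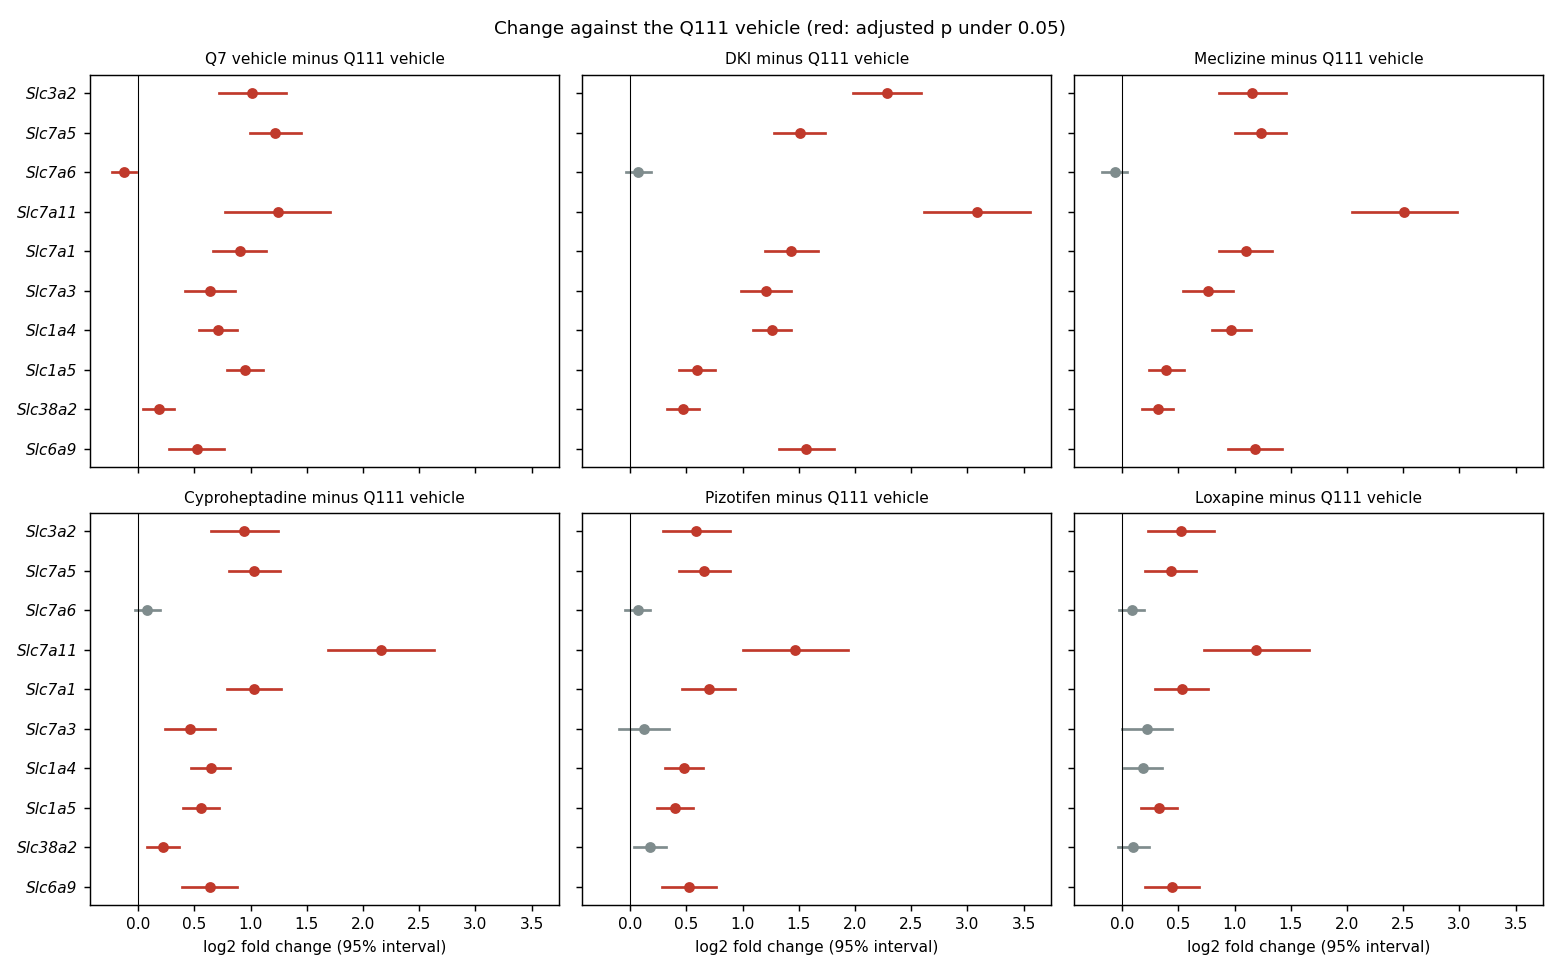
Log2 fold changes of the 10 genes against the STHdhQ111 vehicle control, with 95% intervals from limma, for the STHdhQ7 vehicle control and 5 compounds (red where the adjusted p is under 0.05, gray where it is not). Slc7a11 lies farthest right in each compound panel, at 3.09 with DKI and 1.19 with loxapine, and Slc7a6 lies near 0 in all 6.

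The STHdhQ7 vehicle control was compared with the STHdhQ111 vehicle control to see how the lines differed without a compound. In wild-type cells 9 of the 10 genes were higher and Slc7a6 was lower. Much of the transcriptome differed as well, with 55.8% of all tested genes called in either direction, 29.2% higher and 26.6% lower. The median log2 fold change over the 10 genes was 0.81, against 0.004 over all tested genes. Slc7a11 was at 7.86, 7.34 and 7.07 in wild-type cells (log2 fold change 1.24, SE 0.23, adjusted p = 1.71e-05 by limma). Slc7a5 was at 11.40, 11.26 and 11.26 (1.22, adjusted p = 5.42e-12) and Slc3a2 at 11.84, 11.91 and 11.80 (1.02, adjusted p = 1.86e-07 by limma). No wild-type sample overlapped a STHdhQ111 vehicle sample in any of these 3 genes.

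Among the remaining genes, Slc1a5 (0.95, adjusted p = 2.94e-13 by limma) and Slc7a1 (0.90, adjusted p = 1.9e-08) differed most between the lines. Slc1a4 (0.71), Slc7a3 (0.64) and Slc6a9 (0.52) were called higher too. The margins were thin for the last 2 genes. Slc38a2 was higher by 0.18 (adjusted p = 0.0239 by limma) and lost the call in 3 of 6 fits with a sample left out, those without replicate 1 or 2 of STHdhQ7 or replicate 3 of the STHdhQ111 vehicle. Slc7a6, at 9.73, 9.91 and 9.88, was lower by a log2 value of -0.13 (adjusted p = 0.0463 by limma) and lost it in 2 of 6, at -0.07 without replicate 1 of STHdhQ7 and -0.08 without replicate 2 of the STHdhQ111 vehicle.

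Groups A and B were compared directly as means over their compounds, with 9 and 6 samples. The p-values rest on the spread between samples of the same compound and not on that between compounds. They therefore concern these compounds only, as do the other group comparisons below. Of the 10 genes, 8 were higher in Group B and none was lower (background 21.4% called higher), although the samples of both groups separated fully in only 3 (background 5.37% of all tested genes). The differences in log2 value were 1.19 for Slc7a11 (adjusted p = 2.64e-08 by limma), 1.04 for Slc3a2 (adjusted p = 2.07e-11) and 0.84 for Slc6a9 (adjusted p = 2.43e-11). Those of Slc7a3 (0.72), Slc1a4 (0.68), Slc7a5 (0.66), Slc7a1 (0.51) and Slc38a2 (0.23) were smaller and were called as well. Slc1a5 was the exception among genes that rose in both groups, with a difference of 0.07 (95% interval -0.04 to 0.17, adjusted p = 0.317 by limma). The pizotifen dose in Group A was 5 µM and the other 4 compounds were at 10 µM, so that group and dose are not fully matched.

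DKI and meclizine, both at 10 µM, were compared within Group B. DKI was higher in 4 of the 10 genes (background 4.3% called higher). Slc3a2 differed most, by a log2 value of 1.13 (SE 0.15, adjusted p = 4.73e-06 by limma), and every DKI sample exceeded every meclizine sample. Slc7a3 (0.45, adjusted p = 0.00796 by limma), Slc6a9 (0.38, adjusted p = 0.0399) and Slc1a4 (0.29, adjusted p = 0.0276) were also called. The xCT gene Slc7a11 was not, with a difference of 0.58 (95% interval 0.11 to 1.05, adjusted p = 0.123 by limma), nor was Slc7a5, with 0.28 (0.05 to 0.51). Whether the heavy chain and its light chains differed from each other in this respect was not tested. With only DKI and meclizine samples in the fit none of the 10 passed, and with single samples left out between 1 and 6 did, with 2 left without replicate 1 or 3 of DKI or replicate 2 of meclizine and 1 without replicate 3 of meclizine.

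Cyproheptadine and loxapine, also both at 10 µM, were compared within Group A. Cyproheptadine was higher in 4 of 10 genes (background 4.91% called higher), which were Slc7a11 (0.97, adjusted p = 0.00505 by limma), Slc7a5 (0.60, adjusted p = 0.000395), Slc7a1 (0.50) and Slc1a4 (0.46). The heavy chain Slc3a2 differed by 0.42 (95% interval 0.12 to 0.72) and missed the threshold (adjusted p = 0.05995 by limma). Slc7a6 did not differ measurably, with an interval of -0.12 to 0.11. Slc6a9 differed by 0.19 (95% interval -0.05 to 0.44) and Slc38a2 by 0.12 (-0.02 to 0.26).

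**Figure D4:**
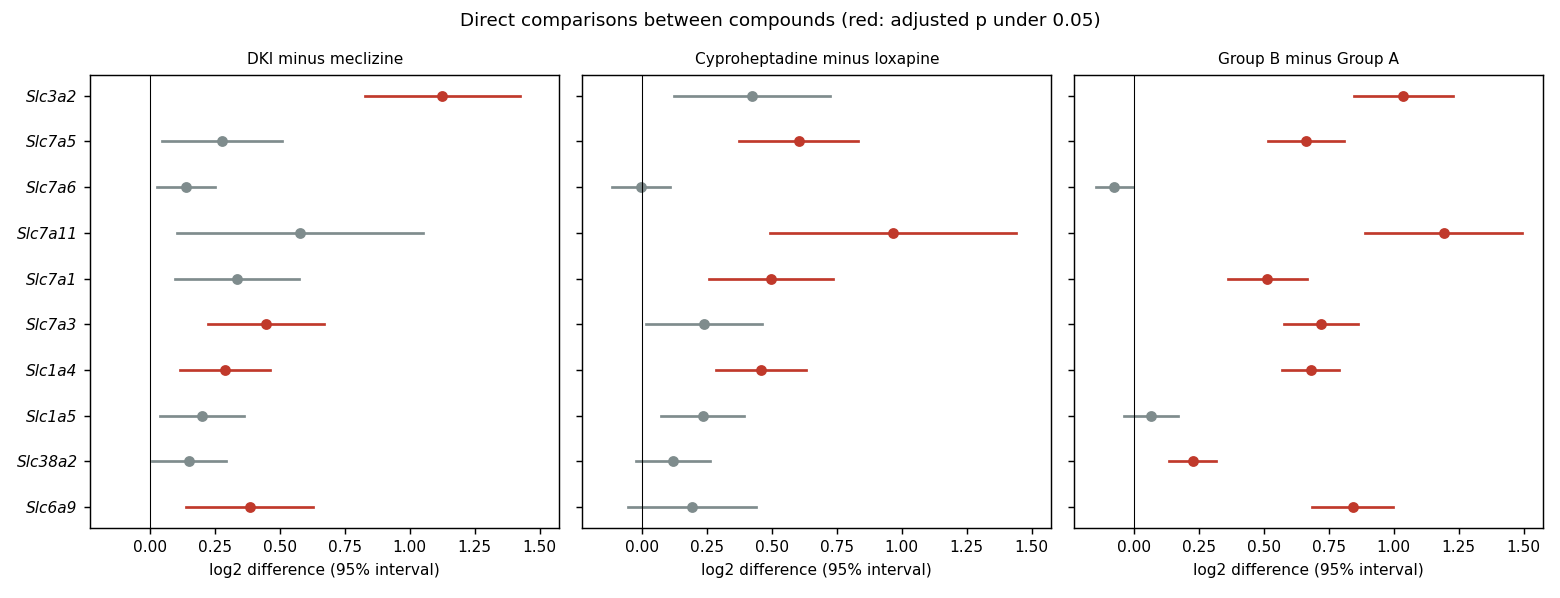
Differences in log2 value of the 10 genes for DKI minus meclizine, cyproheptadine minus loxapine and Group B minus Group A, with 95% intervals from limma (red where the adjusted p is under 0.05). Slc3a2 lies farthest from 0 in the first panel, at 1.13, and Slc7a11 in the other panels, at 0.97 and 1.19.

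DOP, an antagonist of vitamin B6, was the compound with lower transporter RNA. None of the 10 genes was higher and 4 were lower (background 11.2% called lower, 20.1% in either direction). Slc38a2 was at 12.10, 11.97 and 12.03 (log2 fold change -0.30, adjusted p = 0.00196 by limma), below every vehicle sample. Slc7a1 was at 9.26, 9.09 and 9.36 (-0.37, adjusted p = 0.0204 by limma) and Slc6a9 at 9.42, 9.19 and 9.46 (-0.35, adjusted p = 0.0349). With Slc7a6 this made the 4 that were called, of which Slc6a9 lost the call in 5 of 6 fits with a sample left out. Only 2 remained called, Slc38a2 and Slc7a6, without replicate 1 or 2 of the vehicle or replicate 2 of DOP, and against the compounds of the same collection slots Slc7a1 differed by -0.12 (adjusted p = 0.486 by limma).

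Sodium butyrate, a histone deacetylase inhibitor, changed 37.5% of all tested genes and yet only 1 of the 10 transporters. Slc38a2 was at 12.09, 12.10 and 12.16 with butyrate (log2 fold change -0.22, adjusted p = 0.013 by limma), and 17.8% of all genes were called lower. The call was absent against nicotinamide and nortriptyline, the compounds of the same slots (-0.10, adjusted p = 0.215 by limma). It was absent as well without replicate 1 or 2 of the vehicle or replicate 1 of butyrate, and without replicate 3 of the vehicle Slc7a6 joined it. Slc7a11 was at 6.32, 6.25 and 6.62 (0.22, adjusted p = 0.488 by limma) and Slc3a2 differed by 0.07.

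With the other 7 compounds limma called none of the 10 genes. Over all tested genes the share called was 13.1% with TSA, 10.4% with nicotinamide, 7.83% with cysteamine, 3.83% with nortriptyline, 0.515% with selisistat, 0.0597% with fingolimod phosphate and 0% with haloperidol. At an unadjusted p under 0.05, 2 of the 10 passed with TSA, 2 with nicotinamide, 1 with cysteamine and none with the rest. The widest 95% interval among the 10 genes was that of Slc7a11, which ran from -0.60 to 0.33 with nicotinamide and from -0.65 to 0.28 with nortriptyline. A Slc7a11 rise of 1 on the log2 scale lay outside both, as it did for selisistat, cysteamine, fingolimod phosphate and haloperidol. Slc7a1 had the lowest value with nicotinamide (-0.28, adjusted p = 0.109 by limma). It was called lower there, and with cysteamine (-0.19), when only the compared samples were fitted. Both compounds were collected in slots other than the vehicle's, shared with nortriptyline, DOP, butyrate and loxapine. Mean Slc7a1 was 9.61 in the vehicle, 9.32 with nicotinamide, 9.42 with cysteamine, 9.39 with nortriptyline, 9.24 with DOP and 9.52 with butyrate. Loxapine stood at 10.14. Against nicotinamide and nortriptyline, Slc7a1 was not called with cysteamine, and nicotinamide had no such comparison. Nicotinamide and haloperidol were given at 0.5 nM, nortriptyline at 1 nM and cysteamine at 250 µM, so doses differed widely.

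TSA, another histone deacetylase inhibitor, was not called in any of the 10 genes, but its 3 samples disagreed. Replicate 2 was the highest of the 3 in 9 of 10 genes, by a median of 0.603 over the mean of the other two. Slc7a11 was at 6.38, 7.74 and 5.98 in TSA replicates 1 to 3, so that replicate 2 exceeded all loxapine samples. Slc3a2 was at 10.78, 11.79 and 10.74, Slc7a5 at 10.04, 10.59 and 9.88 and Slc7a1 at 9.36, 9.98 and 9.27. Slc1a5 was at 8.81, 8.80 and 8.61 and showed no such peak. Replicate 2 did not stand apart in most genes, since 68 of 13409 differed by more than 0.5 from the mean of the other two, rank 8 among the 48 samples. In that sample 12 of 16 ATF4 pathway genes and 13 of 15 amino acid enzymes were also the highest of the 3. So were 8 of 11 NRF2 targets, while 32.0% of all tested genes were. Among the ATF4 pathway genes were Trib3, an inhibitory pseudokinase, at 7.19, 8.51 and 6.98 and Ddit3, the stress factor CHOP, at 9.00, 9.74 and 8.87. Without replicate 2, Slc7a1 was called lower with TSA (log2 fold change -0.31, adjusted p = 0.049 by limma), and without replicate 3, Slc7a11 (0.90) and Slc3a2 (0.46) were called higher. These TSA genes were picked after their values were seen.

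**Figure D5:**
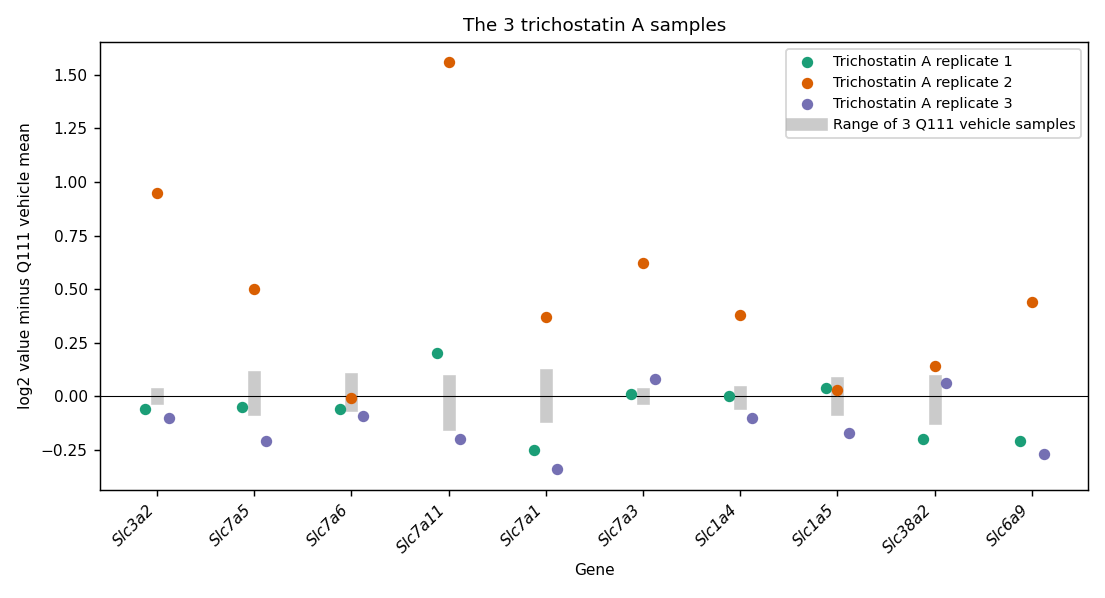
Log2 value minus the mean of the STHdhQ111 vehicle samples for the 10 genes in TSA replicates 1 (green), 2 (orange) and 3 (violet), with gray bars for the range of the 3 vehicle samples. Replicate 2 lies above the gray bar in 8 of the 10 genes, up to 1.56 for Slc7a11, while replicates 1 and 3 lie at or below 0.20.

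DKI replicate 1 was the highest of its 3 in 8 of 10 genes, by a median of 0.303, beside 36.9% of all tested genes. In that sample 176 of all tested genes differed by more than 0.5 from the mean of the other replicates, rank 3 among the 48 samples. Meclizine replicate 1 (median 0.12) and cyproheptadine replicate 2 (median 0.155) were also the highest of their 3 in 8 of 10 genes. All 9 calls with DKI remained in number with any 1 DKI or vehicle sample left out. The same held for the 9 calls with meclizine, 7 with pizotifen and 6 with loxapine.

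Over the 16 condition means, with the collection day removed, 9 of the 10 genes moved together and Slc7a6 less so. The median Pearson correlation of a gene with the other 9 ran from 0.79 for Slc1a5 to 0.95 for Slc1a4, and was 0.36 for Slc7a6 with a range of 0.24 to 0.62. Slc7a1 and Slc7a5 had the highest value of any pair, 0.98. These values describe 16 points from one table, and no test was made.

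Among 9928 other genes with a mean log2 value of at least 6, the most similar pattern to Slc7a11 was that of Asns (r = 0.995), asparagine synthetase, followed by Gars (0.993) and Sars (0.992), which charge tRNA with glycine and serine. Slc7a1 was closest to Tars (0.985) and Yars (0.983), the threonine and tyrosine tRNA synthetases, and Slc3a2 to Wars (0.984), that of tryptophan. Slc7a5 ran with Shmt2 (0.984) and Phgdh (0.980), enzymes of serine and glycine metabolism. Slc1a4 ran with Eprs (0.986), the glutamate and proline tRNA synthetase, Slc6a9 with Hspa9 (0.985), a mitochondrial chaperone, and Slc7a3 with Recql4 (0.978), a DNA helicase. The pattern of Slc1a5 was closest to Etv5 (0.978), a transcription factor of the ETS family, and that of Slc38a2 to Ddx3x (0.954). For Slc7a6 the closest gene, Cdc37l1, reached only 0.895.

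Other amino acid transporters of the plasma membrane gave a mixed picture. Of 22 such genes listed, 15 were tested. With DKI 4 were higher and 4 lower (background 20.4% and 21.9%), with meclizine 3 and 3 (13.1% and 13.6%) and with cyproheptadine 5 and 2 (17.5% and 18.2%). With pizotifen 1 was higher and 2 were lower (8.86% and 9.07%), and with loxapine 2 and none (10.1% and 11.8%). With butyrate 6 were higher and none lower (19.6% and 17.8%), and in wild-type cells 7 were higher and 5 lower (29.2% and 26.6%). Slc38a1 (SNAT1), a glutamine carrier related to Slc38a2, was higher with DKI (log2 fold change 0.93), cyproheptadine (0.83), meclizine (0.57), pizotifen (0.50) and loxapine (0.36), all called by limma. It differed more between the lines, by 2.15 in wild-type cells (adjusted p = 9.8e-20 by limma). Slc1a3, the glutamate carrier GLAST, was lower with cyproheptadine (-0.57), DKI (-0.56) and pizotifen (-0.52) and in wild-type cells (-0.90), and higher with butyrate (0.41). Slc7a2, the cationic carrier CAT2, was lower in wild-type cells (-1.03) and higher with DKI (0.73) and meclizine (0.42), and stood 0.87 higher in Group B than in Group A (adjusted p = 1.91e-09 by limma). The median log2 fold change of these 15 genes lay between -0.0383 and 0.0042 with the 5 compounds.

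Transporters of lysosomes and other inner membranes were called in both directions. Of 12 tested, 4 were higher and 3 lower with DKI (background 20.4% and 21.9%) and 2 higher and 1 lower with meclizine (13.1% and 13.6%). With cyproheptadine 4 were higher (17.5%), with pizotifen 3 (8.86%) and with loxapine 3 (10.1%), and none was lower. In wild-type cells 6 were higher (29.2%) and 2 lower (26.6%). Pqlc2, which exports cationic amino acids from lysosomes, was higher with cyproheptadine (log2 fold change 0.58), pizotifen (0.46), loxapine (0.40) and DKI (0.21) and in wild-type cells (0.31), and it stood lower in Group B than in Group A by a log2 value of -0.30 (adjusted p = 1.8e-07 by limma). Slc38a7, a lysosomal glutamine carrier, went the other way and was 0.49 higher in Group B (adjusted p = 3.88e-09 by limma). Ctns, the lysosomal cystine carrier, was higher with all 5, from 0.23 with loxapine to 0.41 with DKI. With DOP 6 of the 12 were lower (background 11.2%), led by the proton-coupled carrier Slc36a1 (-0.45, adjusted p = 9.03e-07 by limma).

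Genes of the ATF4 pathway and enzymes of amino acid metabolism are given from fixed lists. The first list mixes Atf4 itself and the kinases upstream of it with stress genes such as Chac1, so it is not one of regulators only. Of 16 genes of the ATF4 pathway, 12 were higher with DKI, 12 with meclizine, 13 with cyproheptadine, 12 with pizotifen and 12 with loxapine. The numbers lower were 3, 2, 1, 0 and 0. Over all tested genes, in the same order, 20.4%, 13.1%, 17.5%, 8.86% and 10.1% were called higher and 21.9%, 13.6%, 18.2%, 9.07% and 11.8% lower. The median log2 fold change was 1.12 with DKI and 0.46 with loxapine. Trib3 rose by 3.00 with DKI and 2.68 with meclizine, and Chac1, which degrades glutathione, by 2.12 and 1.79 (all called by limma). With butyrate 6 of the 16 were higher and 2 lower (background 19.6% and 17.8%), led by Atf3 at 1.03. With TSA Trib3 (0.61) and Atf3 (0.52) were called higher, beside 13.1% of all tested genes called in either direction. None of the 10 transporters was called higher with butyrate or TSA. In wild-type cells 9 of the 16 were higher and 3 lower (background 29.2% and 26.6%), with Trib3 at 1.81, Ddit4 at 1.22 and Chac1 at 1.22. Ddit3 differed there by 0.02 (adjusted p = 0.884 by limma), although it rose by 1.90 with DKI, a gene singled out after its values were seen. Whether ATF4 had a part in the changes of the 10 transporters was not tested.

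Of 15 enzymes of amino acid synthesis and use, 12 were higher with DKI, 12 with meclizine, 13 with cyproheptadine, 12 with pizotifen and 10 with loxapine, with none lower, beside the same shares of all genes. Cth, which makes cysteine, rose by 2.30 with DKI and 1.65 with meclizine. It was 1.29 higher in Group B than in Group A (adjusted p = 4.14e-13 by limma). Asns rose by 1.65 with DKI and 1.44 with meclizine. With butyrate 6 of the 15 were higher and 1 lower (background 19.6% and 17.8%), among them Pycr1 (0.52) of proline synthesis. With TSA 4 were higher and none lower, beside 13.1% of all tested genes called in either direction.

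Slc7a11 is also a known target of NRF2, the regulator of the oxidative stress response, and 11 further targets were tested. With DKI 7 were higher (background 20.4%), with meclizine 7 (13.1%), with cyproheptadine 5 (17.5%), with pizotifen 4 (8.86%) and with loxapine 2 (10.1%), and none was lower with these 5. Hmox1, heme oxygenase, rose by 1.42 with DKI and 0.92 with meclizine, and Srxn1, a sulfiredoxin, by 0.61 and 0.69 (called by limma). In wild-type cells, where Slc7a11 was higher, 2 of the 11 were higher and 4 lower, with Abcc1, an exporter of glutathione conjugates, at 0.56, Nqo1 at -0.52 and G6pdx at -0.45 (background 29.2% higher and 26.6% lower). With cysteamine 2 of the 11 were higher and none lower, beside 7.83% of all tested genes called in either direction. Nqo1 rose there by 0.77 (adjusted p = 2.79e-06 by limma) while Slc7a11 stood at 5.90, 6.04 and 6.10 (-0.17, adjusted p = 0.727 by limma). Whether NRF2 had a part in the changes of Slc7a11 was not tested. A last list, of genes of growth control and of amino acid sensing by mTORC1, had 10 tested members, of which 9 were higher with DKI, 8 with meclizine, 7 with cyproheptadine, 6 with pizotifen and 4 with loxapine, and 1 was lower with each, beside the same shares of all genes. Myc had the largest called change of this list with DKI (1.42), meclizine (1.01), cyproheptadine (0.70) and loxapine (0.52). It was also higher with pizotifen (0.35) and stood 0.69 higher in Group B than in Group A. Rragd, a GTPase of amino acid sensing by mTORC1, was higher with DKI (0.87), meclizine (0.84), cyproheptadine (0.54) and pizotifen (0.42), and in wild-type cells (0.71). It was also called higher with TSA (0.58) and butyrate (0.34), where none of the 10 transporters was.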

How the data were processed

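RNA-Seq of 48 samples was analysed, 3 in each of 16 conditions, grouped by the sample labels. The authors used Trimmomatic 0.36 for trimming, the GRCm38.p5 transcriptome for alignment and RSEM for quantification, with DESeq2 and the collection day for their own tests. The deposited table holds normalized abundances on a log2 scale (-2.34 to 18.62), and the transformation is not given in the sources used here. How it treats genes with low values such as Slc7a3 is therefore unknown. It holds no read counts, so depth is unknown and no counting error is given. The library kit was directional, with poly(A) selection.

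Testing covered the 13409 of 18178 genes with a symbol whose mean log2 value reached 1 (27281 rows in all). With limma 3.58.1 in R 4.3.3, condition and collection day were fitted over all 48 samples with 30 residual degrees of freedom and a variance trend. P-values were two-sided and adjusted by Benjamini-Hochberg within each of 18 comparisons over all tested genes, and genes under 0.05 were called. The labels do not say whether replicates came from separate cultures, so p-values measure the spread between these samples. The median residual SD was 0.086.

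The 10 genes and the lists were chosen with earlier results of these data known. All 10 are named. Other genes were drawn mostly from the up to 3 called genes with the largest absolute change per list and comparison. Further ones came from the 3 genes most correlated with each of the 10. Not all of these are named, so the named genes are a selection. Positions come from GENCODE annotation of GRCm38 and promoter windows from RefSeq.

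The replicate number equals the collection day in the labels except for replicate 1 of cyproheptadine and of DKI (day 3). The day, which pairs samples per the labels, is a term of the fit. Deviations from the condition means, with the day not removed, had a mean correlation of -0.055 between samples of other conditions on the same day and 0.0279 on other days. Alternatives were other filters, no day term, replicate number as a block, collection time, only the compared samples, median centring, 16 added on the linear scale, no variance trend, comparators of the same collection slot and leaving out each sample.

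Plots were made with matplotlib 3.10.9 (Python 3.11.15), and SE stands for the standard error of a difference. Metabolite, protein and ChIP-Seq data were not analysed here.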

Additional observations from a re-analysis of the deposited data

How the results depend on the processing

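No call on the 10 genes reversed its direction under any alternative. Of 1672 single results under the alternatives that kept every sample, 1644 stayed on their side of the threshold, 14 lost and 14 gained a call, and of 1170 with a sample left out, 1131 stayed, 27 lost and 12 gained one. With sodium butyrate the 1 call became 2 without a replicate block (no collection day term) and with median centring, where Slc7a6 joined Slc38a2, and 0 against compounds of the same collection slots. With only the compared samples in the fit, nicotinamide and cysteamine went from 0 to 1 (Slc7a1, lower) and DKI against meclizine from 4 to 0, in a fit with fewer samples. The cause of the other shifts was not tested. The replicate number as a block in place of the day changed 1 call, Slc1a5 in cyproheptadine against loxapine (log2 difference 0.23, adjusted p = 0.0446 by limma), and dropping the day term changed 3.

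With 1 sample left out in turn, the number of the 10 genes called ranged from 8 to 10 for STHdhQ7, 8 to 9 for cyproheptadine, 0 to 2 for butyrate, 2 to 4 for DOP and 0 to 2 for TSA. It ranged from 1 to 6 for DKI against meclizine, 4 to 6 for cyproheptadine against loxapine and 8 to 9 for Group B against Group A. It stayed at 9 for DKI and meclizine, 7 for pizotifen, 6 for loxapine and 0 for the other compounds. Where 2 samples of a group remained, their spread was pooled with the other conditions. The lower Slc7a6 in STHdhQ7 cells was not called without a filter on low values (adjusted p = 0.0537 by limma), with collection time as a term (0.0558), without a variance trend (0.0516) or with only the compared samples (0.13). A minimum mean of 6 left out Slc7a3, so it has no value there. Depth is unknown, and the collection slot of each comparison with the vehicle could be matched only through other compounds.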
